A study of Mus musculus with 30 samples.

Results

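The lysosome was followed here through 42 genes: 26 for soluble enzymes and their activator or carrier proteins, 5 for membrane proteins, 7 for the proton pump that acidifies the compartment, 3 for the MiT/TFE transcription factors, and progranulin. The genes were chosen by name and role, with earlier results of these data known, and the rule uses no measured value. Of the 42, 41 had at least 1 probe on the array and 40 were tested among 11937 genes. No probe of the table used was annotated to Atp6v0c, and the single probe of Atp6v0d2 was detected on 0 of 30 arrays. Expression had been measured in macrophages sorted by FACS for F4/80, the product of Adgre1 and a surface marker of mouse tissue macrophages.

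All mice were C57BL/6 and carried 1 copy of the Eµ-TCL1 transgene, which drives the human TCL1 oncogene in B cells and serves as a model of chronic lymphocytic leukaemia. They were either Mif-/- (KO) or wild type for Mif (WT), the gene of macrophage migration inhibitory factor, and were taken with leukaemia (l) or without it (nl). Macrophages came from bone marrow (BM) or spleen (SP), which gave 8 groups. The wild-type groups held 3 arrays in WT-nl-BM, 5 in WT-l-BM, 3 in WT-nl-SP and 3 in WT-l-SP. The knockout groups held 3 arrays in KO-nl-BM, 6 in KO-l-BM, 3 in KO-nl-SP and 4 in KO-l-SP. Every control mouse carried the transgene too, so no comparison is with transgene-free animals. The labels give 2 to 5 months for leukaemic and 10 to 15 months for non-leukaemic mice, an order that is unusual for a disease that develops with age, and age and leukaemia cannot be told apart. Nothing in the labels ties arrays to animals, and the spread behind each p-value is that between arrays, which may be technical.

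Lysosomes are the acidic compartments in which macrophages break down what they engulf. Soluble hydrolases reach them from the Golgi, mostly by a mannose 6-phosphate tag, and work at the low pH that the vacuolar proton pump maintains. Glycosylated membrane proteins such as Lamp1 and Lamp2 line the inner face, and Npc2 and Npc1 pass cholesterol out of the lumen in turn. The factors Tfeb, Tfe3 and Mitf bind E-box motifs before many of these genes, and the 8-base form TCACGTGA is the core of the element known as CLEAR. Splenic red pulp macrophages clear aged red cells and depend on this machinery, while marrow macrophages engulf the nuclei that erythroblasts expel.

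The promoters show which of the genes carry this element. RefSeq promoters of GRCm38.p6, from 250 bases before to 50 after each annotated start, were given for 36 of the 42 genes and searched on both strands. The palindrome TCACGTGA was present for 4 of these 36 genes (11.1%), which are Mcoln1, Gla, Atp6v0d1 and Atp6v1a, against 2.07% of the 9680 tested genes with a promoter. Its inner 6 bases, CACGTG, which every TCACGTGA contains, were present for 11 of 36 (30.6%) against 11.5% of the tested genes. Over all 32851 promoters the shares were 0.974% for the 8-base and 7.15% for the 6-base form. The other genes with the 6-base form were Lamp1, Glb1, Arsa, Naglu, Sgsh, Gaa and Lgmn. These stretches are shown because they hold the 4 copies of Lamp1, the 8-base forms of Mcoln1, Gla and Atp6v1a, and the motif of Lgmn, the gene with the largest tissue difference below. In Atp6v0d1 the CACGTG within the 8-base form begins at -3, crosses the start and is not shown. Each stretch is written 5′ to 3′ on the gene's strand and ends before the start, with the motif in capitals.
Lamp1: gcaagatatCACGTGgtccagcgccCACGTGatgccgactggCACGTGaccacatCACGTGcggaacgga
Mcoln1: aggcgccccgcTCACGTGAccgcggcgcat
Gla, distal: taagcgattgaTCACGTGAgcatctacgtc
Gla, proximal: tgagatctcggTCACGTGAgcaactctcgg
Atp6v1a: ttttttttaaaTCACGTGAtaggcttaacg
Lgmn: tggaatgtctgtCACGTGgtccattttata
The Lamp1 stretch lies at chr8:13159091-13159160 on the plus strand, and its 4 motifs begin at -61, -45, -28 and -15, counted in bases from the start. Those of Mcoln1 (chr8:3500462-3500491, plus strand), Atp6v1a (chr16:44139373-44139402, minus strand) and Lgmn (chr12:102439124-102439153, minus strand) place the first base of CACGTG at -45, -131 and -49, for Lgmn in 1 of its 2 promoters. Gla, on the minus strand of the X chromosome, has its pair at chrX:134601215-134601244 and chrX:134601182-134601211. Promoters of Acp2, Gusb, Ppt1, Manba and Gm2a held neither form. A match describes letters in this window and is not evidence of binding.

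**Figure D1:**
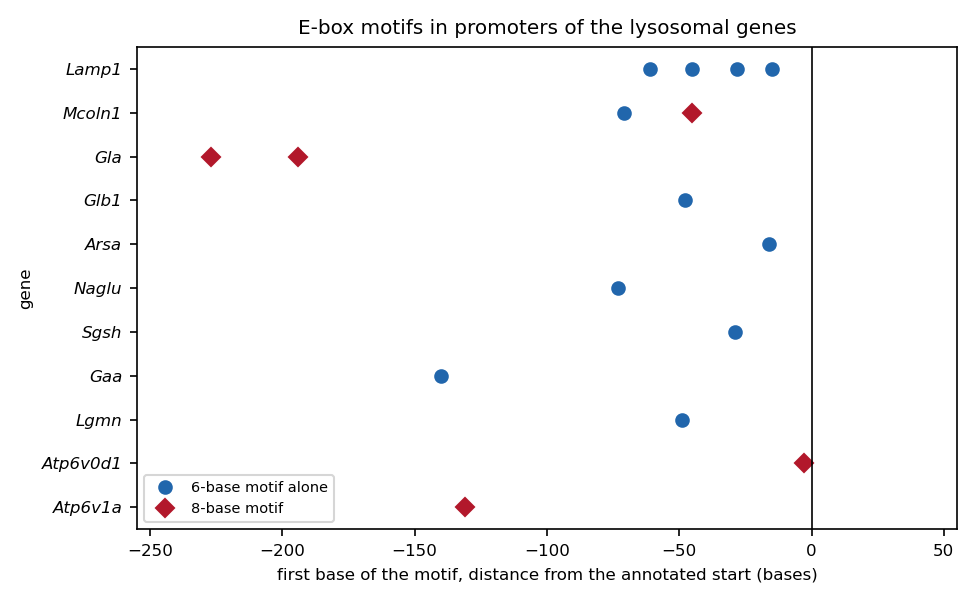
Distance of each CACGTG motif from the annotated transcription start (x axis, bases) in the promoters of the 11 lysosomal genes that hold one (y axis). Red diamonds mark the 8-base TCACGTGA and blue circles the 6-base form alone; Lamp1 shows 4 copies between -61 and -15 and Gla has its 2 copies furthest upstream.

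The labels were checked first. Mif was at 10.41 to 12.38 (normalised log2 intensity) on the 14 wild-type arrays and at 4.14 to 5.07 on the 16 knockout arrays, with no overlap. Adgre1 was detected on all 30 arrays, with group means from 8.62 to 9.98. Neutrophil genes were abundant in these sorted cells: the mean of 12 measured neutrophil markers was 8.81 to 12.11 over the marrow arrays and 5.92 to 12.15 over the spleen arrays. From their groups 3 arrays stood apart: WT-nl-SP replicate 1, whose macrophage marker mean of 10.16 was the highest of all, WT-l-SP replicate 3, with the highest neutrophil marker mean of all (12.15), and KO-l-SP replicate 2, a spleen array closest to a marrow array (r = 0.98). WT-l-SP replicate 3 was closest to a marrow array too (r = 0.984), and so was 1 more spleen array, KO-nl-SP replicate 6 (r = 0.979). The latter had a neutrophil marker mean of 9.93. The main counts are given without the 3, and below also without all 4, a setting chosen after seeing the data. Xist was detected on 8 arrays, among them all 3 of WT-l-SP, so sex also moves with the groups, and Lamp2, Gla, Ids, Atp6ap1 and Tfe3 are X-linked.

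Most of the lysosomal genes were well above background. Of the 40 tested, 35 were detected on all 30 arrays, Sgsh on 29, Mitf on 27, Acp5 on 12, Tfeb on 6 and Gla on 3. Psap, the precursor of the saposins that present sphingolipids to their hydrolases, lay between 12.68 and 14.06 on all arrays. Lamp1 lay between 10.35 and 12.08 and Lamp2 between 11.02 and 12.22. The pooled SD within groups was 0.11 to 0.91 over the 40 genes. The smallest belonged to Gla, which was not well above background on 27 arrays, and the largest to Arsb, the arylsulfatase of dermatan sulfate. Over the 30 arrays Lgmn had the widest range, from 7.16 to 11.87, a span of 4.72 on the log2 scale. Acp5, the tartrate-resistant phosphatase of osteoclasts, was not well above background on any array of KO-nl-BM and reached 6.27 on WT-nl-SP replicate 1. Atp6v0d2, the pump subunit of osteoclasts, was not detected, and of 8 osteoclast markers Calcr, Dcstamp, Ocstamp and Itgb3 were detected on at most 2 arrays. Of the other 4, Mmp9 and Nfatc1 were detected on 30 arrays, Ctsk on 18 and Oscar on 8.

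**Figure D2:**
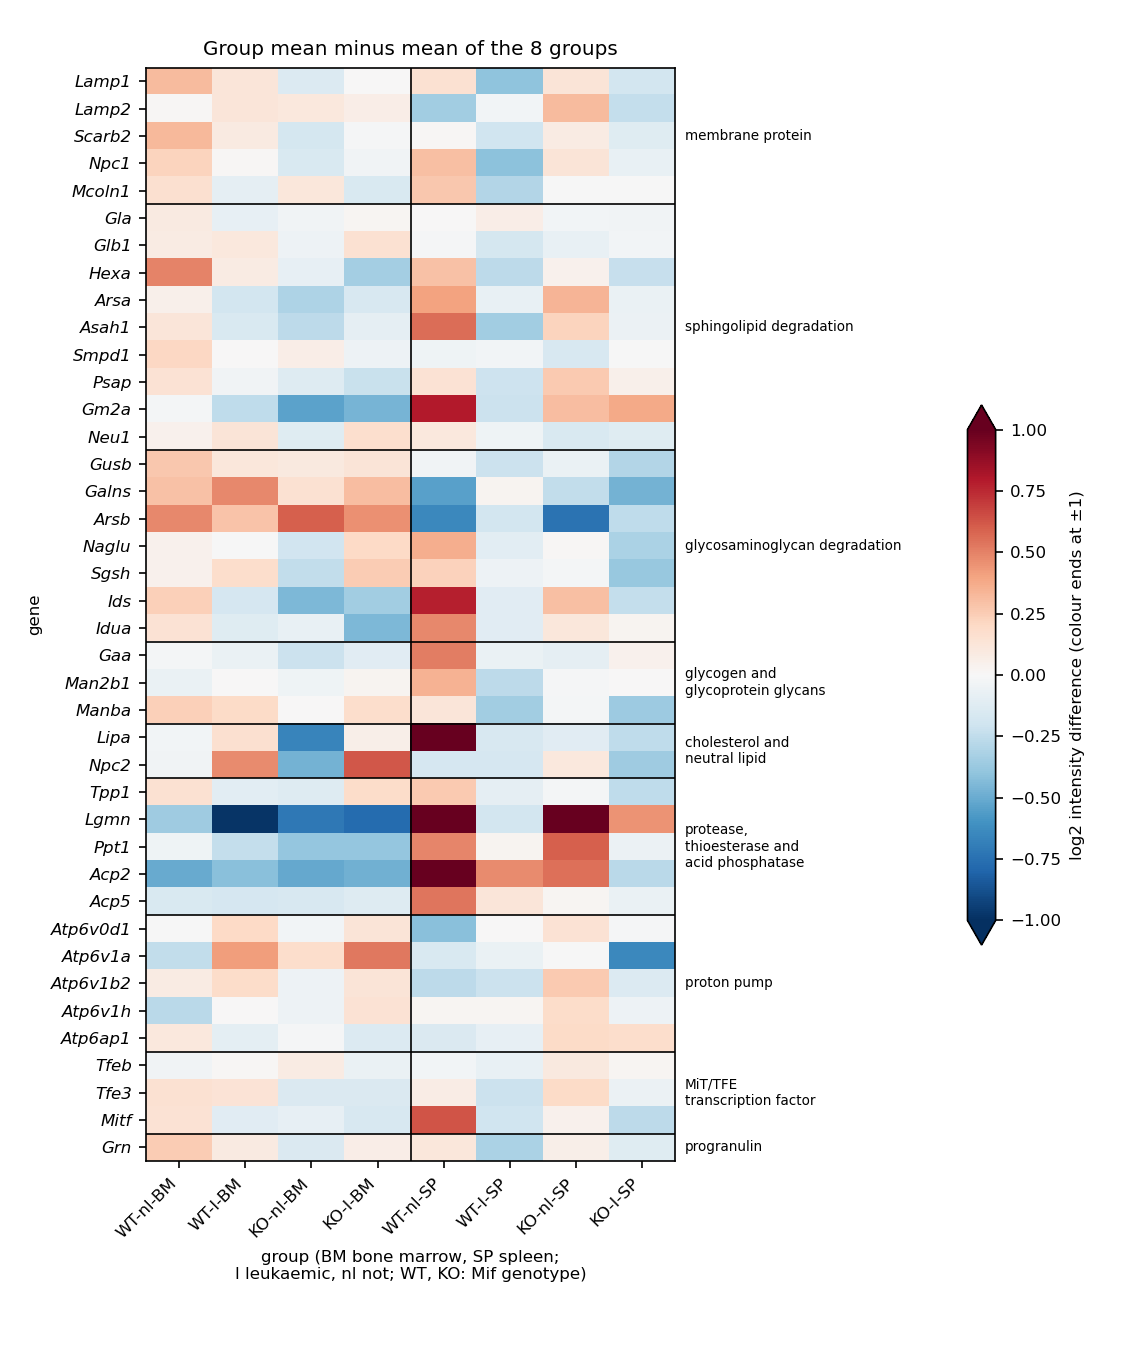
Group means of the 40 tested lysosomal genes (rows, by role) in the 8 groups (columns), each shown as its difference from the mean of the 8 group means in log2 intensity, with red above and blue below. Lgmn and Acp2 are red in the non-leukaemic spleen groups and blue in marrow, and most rows are paler or bluer in the leukaemic spleen groups than in the non-leukaemic ones.

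Spleen macrophages were compared with marrow macrophages as the mean of the 4 differences within genotype and leukaemia status. Of the 40 genes 7 passed an adjusted p of 0.05 in the limma fit (17.5%), and 15.7% of all genes tested did so; at an unadjusted p of 0.05 the shares were 30% and 30.1%. The lysosomal genes were thus called about as often as any gene, and their median log2 difference was -0.02 against 0.01 over all genes, with 55% below 0 against 47.4%. The called genes went in both directions. Lgmn, Acp2, Gm2a and Ppt1 were higher in spleen, and Galns, Gusb and Manba were lower.

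Lgmn encodes legumain, an asparaginyl endopeptidase that processes cathepsins and antigens. In marrow its log2 intensities, in order of replicate number, were 8.72, 9.04 and 8.38 in WT-nl-BM, 8.08, 7.21, 8.56, 8.26 and 8.35 in WT-l-BM, 8.14, 8.66 and 8.27 in KO-nl-BM, and 7.16 to 9.34 with a median of 8.20 in KO-l-BM. In spleen they were 11.87, 9.90 and 9.55 in WT-nl-SP, 9.83, 9.04 and 7.79 in WT-l-SP, 10.09, 10.63 and 10.07 in KO-nl-SP, and 10.09, 9.91, 8.37 and 9.71 in KO-l-SP. Of the 13 spleen arrays 10 lay above all 17 marrow arrays, and the 2 tissues did not overlap without leukaemia in either genotype. The difference was 1.41 ± 0.26 (SE), or 2.66-fold, with an adjusted p of 0.000647 in limma. It was 1.12 to 1.91 within each of the 5 slides that held both tissues. On none of these slides did the spleen and marrow groups match in genotype and leukaemia status, here or for the genes below. Slides 3 and 5 held 1 marrow array each.

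Acp2, the lysosomal acid phosphatase, gave a similar picture on fewer arrays. Its marrow values were 6.57, 6.70 and 6.33 in WT-nl-BM, 6.58, 6.401, 6.12, 6.9999 and 6.99 in WT-l-BM, 6.74, 6.68 and 6.16 in KO-nl-BM, and 6.17 to 7.22 with a median of 6.52 in KO-l-BM. The spleen values were 9.51, 7.47 and 7.66 in WT-nl-SP, 8.07, 7.76 and 6.71 in WT-l-SP, 6.89, 7.58 and 8.32 in KO-nl-SP, and 6.90, 6.59, 6.30 and 7.28 in KO-l-SP. On 8 spleen arrays the value exceeded every marrow array, while those of KO-l-SP stayed largely within the marrow range. The difference was 0.96 ± 0.20, or 1.95-fold (limma, adjusted p = 0.00196), and 0.71 to 1.40 within slides. Of its 4 kept probes 3 gave 0.89 to 0.96 and the other gave -0.02.

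Gm2a and Ppt1 had smaller differences that were less secure. Gm2a, the activator that lifts GM2 ganglioside to hexosaminidase A, was at 11.60, 11.59 and 11.75 in WT-nl-BM, at 11.56, 10.68, 11.88, 11.39 and 11.55 in WT-l-BM, at 10.29, 11.48 and 11.64 in KO-nl-BM, and at 10.42 to 11.64 with a median of 11.25 in KO-l-BM. In spleen Gm2a was at 12.73, 11.92 and 12.74 in WT-nl-SP, 12.27, 12.04 and 10.06 in WT-l-SP, 12.50, 11.999 and 11.44 in KO-nl-SP, and 12.38, 11.32, 11.83 and 12.66 in KO-l-SP. All marrow arrays were below 9 spleen arrays, but WT-l-SP replicate 3 was the lowest array of all. The difference of 0.64 ± 0.22 had an adjusted p of 0.0492 in limma and lost its call in 21 of the 30 fits that left out 1 array. Ppt1, the thioesterase that removes palmitate from proteins, was at 7.19, 7.41 and 6.86 in WT-nl-BM, at 7.16, 6.43, 7.12, 7.11 and 6.995 in WT-l-BM, at 6.75, 6.82 and 6.88 in KO-nl-BM, and at 6.42 to 7.43 with a median of 6.74 in KO-l-BM. Spleen arrays gave Ppt1 values of 7.25, 7.99 and 7.82 in WT-nl-SP, 8.23, 7.02 and 6.44 in WT-l-SP, 7.26, 8.39 and 7.74 in KO-nl-SP, and 7.70, 7.19, 6.52 and 7.15 in KO-l-SP. Of the spleen arrays 6 were above the marrow range and the rest within it. The difference was 0.53 ± 0.17 (limma, adjusted p = 0.0319) and was lost in 7 of those 30 fits. Within slides Gm2a gave -0.08 to 1.20 and Ppt1 -0.21 to 0.93, each above 0 on 4 of 5.

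Among the genes lower in spleen, Galns, a sulfatase of keratan sulfate and chondroitin sulfate, had the smallest adjusted p of the 40. Its marrow values were 6.32, 5.95 and 6.44 in WT-nl-BM, 6.59, 6.67, 6.48, 6.01 and 6.35 in WT-l-BM, 6.64, 5.83 and 5.80 in KO-nl-BM, and 5.95 to 6.62 with a median of 6.18 in KO-l-BM. Its spleen values were 5.19, 5.79 and 5.21 in WT-nl-SP, 5.96, 5.70 and 6.24 in WT-l-SP, 5.63, 5.73 and 5.71 in KO-nl-SP, and 5.46, 5.82, 5.09 and 5.50 in KO-l-SP. Of 13 spleen arrays 10 lay below the whole marrow range, and the tissues overlapped only in leukaemic wild-type mice. The gene fell by 0.62 ± 0.11 on the log2 scale (adjusted p = 0.000494, limma), and its second kept probe gave -0.26. Within slides the difference was -0.80 to -0.07.

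Gusb, the beta-glucuronidase of glycosaminoglycan chains, differed by less than its range in either tissue. Its marrow arrays were at 10.51, 10.35 and 10.59 in WT-nl-BM, 10.49, 10.36, 10.25, 10.10 and 10.43 in WT-l-BM, 9.99, 10.56 and 10.37 in KO-nl-BM, and 10.10 to 10.50 with a median of 10.42 in KO-l-BM. Its spleen arrays were at 9.91, 10.36 and 10.25 in WT-nl-SP, 10.34, 9.98 and 9.66 in WT-l-SP, 9.84, 10.35 and 10.24 in KO-nl-SP, and 10.05, 10.11, 9.54 and 9.95 in KO-l-SP. Tissue ranges overlapped in every one of the 4 strata, although 11 of 17 marrow arrays were above all spleen arrays. The difference was -0.31 ± 0.09 (limma, adjusted p = 0.0157), and its 4 kept probes gave -0.31, 0.18, -0.46 and -0.11, so they disagree in sign.

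Manba, the beta-mannosidase of glycoprotein glycans, was at 9.05, 9.01 and 8.98 in WT-nl-BM, 9.18, 8.75, 8.95, 8.63 and 9.30 in WT-l-BM, 8.33, 9.05 and 8.96 in KO-nl-BM, and 8.57 to 9.30 with a median of 9.003 in KO-l-BM. In spleen it was at 9.09, 8.98 and 8.63 in WT-nl-SP, 8.67, 8.24 and 8.38 in WT-l-SP, 8.67, 8.90 and 8.69 in KO-nl-SP, and 8.57, 8.57, 7.93 and 8.58 in KO-l-SP. Tissue ranges overlapped in all 4 strata, and the 2 spleen arrays below the marrow range were leukaemic. The mean difference was -0.30 ± 0.10 (limma, adjusted p = 0.0356) and lost its call in 8 of the 30 fits. It was -0.54 in leukaemic mice of both genotypes, against -0.11 without leukaemia in wild type and -0.03 in knockout.

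**Figure D3:**
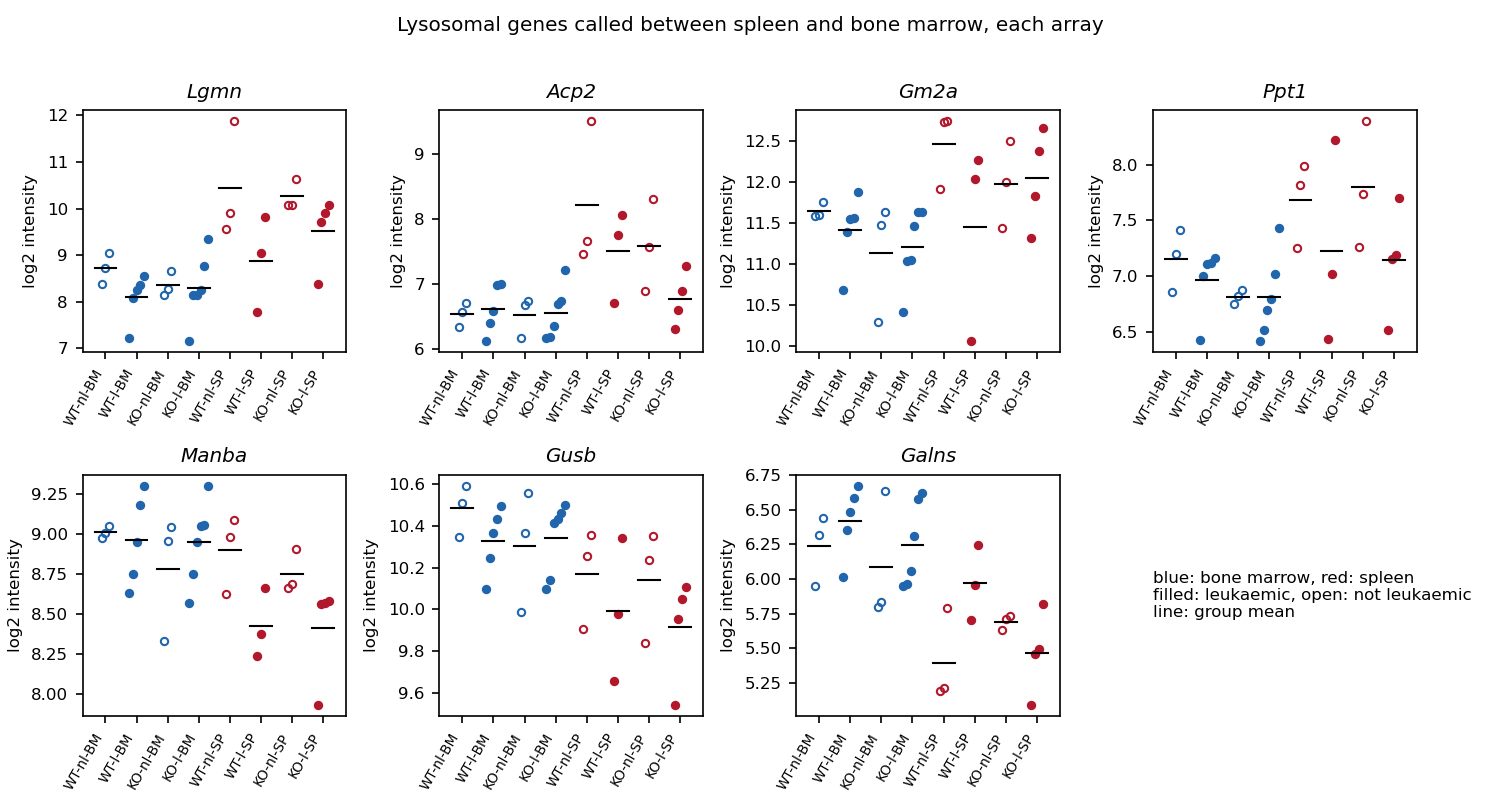
Normalised log2 intensity (y axis) of the 7 lysosomal genes called between tissues, 1 point per array in the 8 groups (x axis), with blue for marrow, red for spleen, filled points for leukaemic mice and lines for group means. Lgmn and Acp2 are higher on most spleen arrays, with a difference of 1.41 and 0.96, and Galns is lower on 10 of 13.

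By role, the endopeptidase, thioesterase and phosphatase group held 3 of the 4 genes higher in spleen, and its 5 tested genes had a median of 0.53. Glycosaminoglycan enzymes held 2 of the 3 genes lower in spleen, with a median of -0.11 over 7, which was 0.06 with the authors' log2 values. The 5 membrane proteins were all within 0.16 of 0, at -0.15 for Lamp1, -0.15 for Lamp2, -0.11 for Scarb2, -0.03 for Npc1 and -0.02 for Mcoln1, and none was called on the probe used; with the authors' log2 values 4 of the 5 were below 0. Of the 7 kept probes of Lamp2 a second one, at -0.33, had an adjusted p of 0.0443 over all kept probes in limma, and the others lay between -0.37 and 0.19. None of the 5 tested proton pump subunits was called either. Arsb, at -0.91 ± 0.33, and the pump's catalytic subunit Atp6v1a, at -0.43 ± 0.16, had adjusted p-values of 0.0627 and 0.0647 in limma. Of 18 genes with 2 or more kept probes, all probes had the same sign in 10.

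Within single strata the calls were few. Without leukaemia in wild type, 2 of 40 genes were called, where 3.86% of all genes were: Acp2 at 1.68 ± 0.43 (limma, adjusted p = 0.0329) and Galns at -0.84 ± 0.24 (limma, adjusted p = 0.0477). In leukaemic knockout mice 2 were called, where 2.35% of all genes were: Galns at -0.78 ± 0.19 (limma, adjusted p = 0.0351) and Atp6v1a at -1.17 ± 0.27 (limma, adjusted p = 0.0305). Atp6v1a was at 7.16 ± 0.39 (SD, n = 4) in KO-l-SP against 8.33 ± 0.48 (SD, n = 6) in KO-l-BM, and no array of the first reached the lowest of the second, 7.56. None was called in leukaemic wild-type mice, where 0.0168% of all genes were, or in non-leukaemic knockouts, where 0% were. Each of these strata had 4 of 40 genes (10%) at an unadjusted p under 0.05 in limma. Of all 11937 genes 1227 had such a p in leukaemic wild type and 1268 in non-leukaemic knockouts, a similar share. Leaving out WT-nl-SP replicate 1, or any 1 of the WT-nl-BM arrays, ended both calls in the first stratum. In leukaemic knockouts leaving out KO-l-BM replicate 4, 5 or 6 or KO-l-SP replicate 3 or 4 ended both calls, as did the slide as a fixed block and the replicate block, and without KO-l-SP replicate 2 there were 6. Shares of all genes called in these fits are not given, so the counts are not results about the lysosomal genes. The highest Atp6v1a values of KO-l-BM, 8.57, 8.61 and 8.94, were those of slide 6, which held no spleen array.

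The 7 calls between tissues did not rest on the 3 arrays that stood apart. Without them all 7 had the same direction and an adjusted p of at most 0.04 in limma, and 10 of the 40 genes were called, where 21.3% of all genes were. Without the 4 arrays 12 were called, where 23.8% were. Leaving out WT-nl-SP replicate 3 alone left 4, with the share of all genes not given. Cell markers moved with tissue as well. In spleen Spic, the factor of red pulp macrophages, was higher by 2.75 and Mertk, a receptor for dying cells, by 1.23, while the neutrophil granule genes Mpo and Ctsg were at -3.28 and -2.82 and the eosinophil gene Prg2 at -3.99, all called. The dendritic cell genes Zbtb46 and Clec9a were higher by 1.32 and 1.02, the B cell gene Cd22 by 0.91 and the lymphocyte gene Il2rb by 0.66, and the erythroid genes Alas2 and Slc4a1 were at -2.30 and -2.02, all called too. Of the macrophage list Cd163, Siglec1, Hmox1 and Axl were called higher too. Its other genes were above 0 without a call, except Adgre1, the sort marker, at -0.01. Of the eosinophil list Epx was called at -1.97, and Ccr3, at -0.08, was not. Other genes of the dendritic cell, B cell, T and NK cell and erythroid lists were not called and did not all share the direction. Of dendritic cell genes Cd209a was at 0.49 and Siglech at -0.57. Of B cell genes Cd79b was at 0.19, Ebf1 at 0.08 and Ms4a1 at -0.10. Of the erythroid genes only Car1 was above 0, at 0.80. Of 12 measured neutrophil markers 11 were called lower, and the list mean of macrophage markers was 5.88 to 7.02 over the marrow arrays and 6.33 to 10.16 over the spleen arrays. Their part in the tissue differences of the lysosomal genes was not tested. In bulk RNA, fewer cells of a type and less RNA per cell cannot be told apart.

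Other genes of the pathway, from lists that exclude the 42, gave 8 higher and 3 lower calls among 66 tested of 79 listed, a share close to the 15.7% of all genes. Ctsa, the protective protein of beta-galactosidase and neuraminidase, was higher in spleen by 1.55 ± 0.40 (limma, adjusted p = 0.0101). Slc11a1, the phagosomal metal transporter, was higher by 0.84 ± 0.19 and Laptm5, a lysosomal protein of blood cells, by 0.30 ± 0.07. The pump subunit Atp6v0a2 was higher by 0.50 ± 0.10. Sort1, a sorting receptor for hydrolases, was at -0.52 ± 0.13 and Lamtor4, part of the Ragulator scaffold for mTORC1, at -0.44 ± 0.09. The remaining calls were Pla2g15, Gnptg, Rptor and Ctso, higher, and Lamtor1, lower.

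Leukaemia in the spleen, taken as the mean of both genotypes, gave no call among the 40 genes, where 0.00838% of all genes (1 of 11937) were called in limma. The differences leaned one way: 34 of 40 genes (85%) were below 0, against 53% of all genes, with a median of -0.28 against -0.01. At an unadjusted p of 0.05 there were 16 (40%), all lower in leukaemic spleen, against 15.8% of all genes. None of these passes the adjustment, and they are given as values. They were Lgmn at -1.15 ± 0.39, Acp2 at -0.76 ± 0.30, Ids at -0.72 ± 0.32, Lipa at -0.65 ± 0.30, Asah1 at -0.60 ± 0.18, Mitf at -0.57 ± 0.20, Ppt1 at -0.56 ± 0.24, Npc1 at -0.46 ± 0.17 and 8 others between -0.44 and -0.28. Those 8 were Lamp1, Mcoln1, Hexa, Arsa, Naglu, Idua, Man2b1 and Manba. Many of these values rest on the 3 arrays that stood apart. Without them Lgmn was at -0.58, Acp2 at -0.21, Ids at -0.35, Lipa at -0.17 and Npc1 at -0.29, while Mitf at -0.48, Ppt1 at -0.48 and Manba at -0.37 moved less. The other 7 of the last 8 were then between -0.21 and -0.11, and the smallest adjusted p of the 40 was 0.551 in limma.

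Asah1, the acid ceramidase, had the smallest p of this comparison. Its spleen values were 12.51, 12.21 and 11.92 in WT-nl-SP, 11.90, 11.49 and 10.54 in WT-l-SP, 11.84, 11.99 and 11.81 in KO-nl-SP, and 11.89, 11.34, 11.23 and 11.91 in KO-l-SP. In marrow they were 11.75, 11.84 and 11.74 in WT-nl-BM, 11.62, 11.13, 11.62, 11.50 and 11.64 in WT-l-BM, 10.89, 11.69 and 11.60 in KO-nl-BM, and 11.16 to 11.90 with a median of 11.55 in KO-l-BM. All leukaemic wild-type arrays were below the non-leukaemic ones, in spleen and in marrow, although the closest spleen arrays nearly met, and the knockout groups overlapped. The spleen difference of -0.60 ± 0.18 had an adjusted p of 0.127 in limma, and a second kept probe gave -0.87. Without the 3 arrays that stood apart it was -0.29 and was not called either.

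Mitf, the MiT/TFE factor of osteoclasts and pigment cells, was close to background and not detected on 3 arrays. Its spleen values were 5.82, 5.76 and 5.24 in WT-nl-SP, 5.36, 4.39 and 4.58 in WT-l-SP, 4.67, 5.35 and 5.05 in KO-nl-SP, and 5.09, 4.80, 4.46 and 4.51 in KO-l-SP. Its marrow values were 5.28, 5.26 and 4.82 in WT-nl-BM, 5.44, 4.80, 5.01, 4.26 and 4.80 in WT-l-BM, 4.27, 5.42 and 5.00 in KO-nl-BM, and 4.41 to 5.01 with a median of 4.93 in KO-l-BM. Leukaemic and non-leukaemic arrays overlapped in each of the 4 pairs of groups. The spleen difference of -0.57 ± 0.20 had an adjusted p of 0.172 in limma. Tfe3, at -0.27, and Tfeb, at -0.06 and detected on 6 arrays, were below 0 too.

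The roles shared the direction to different degrees. All 5 membrane proteins, all 5 genes of the peptidase, thioesterase and phosphatase group, all 3 of glycogen and glycan breakdown and both of cholesterol handling were below 0, with medians of -0.28, -0.56, -0.30 and -0.44. Of 9 sphingolipid genes 7 were below 0 (median -0.28) and of 7 glycosaminoglycan enzymes 5 (median -0.32), Galns at 0.17 and Arsb at 0.47 being above. Without the 3 arrays Arsb was at -0.28 and Galns at -0.01, and 4 genes turned above 0, Glb1, Gaa, Gm2a and Acp5. By role, 5 of 9 sphingolipid genes (median -0.08) and 4 of 5 genes of the peptidase group (median -0.21) were then below 0, and all membrane proteins (median -0.18). Progranulin, Grn, a secreted protein that lysosomes cleave into granulins, was at -0.30 ± 0.20, and at -0.02 without them. The proton pump was nearest to 0, with a median of -0.12 and 2 of 5 subunits above it, against 1 with the authors' log2 values and 0 with 75th percentile scaling. Of the 2 above it, Atp6v0d1 was at 0.13 on the probe used, while its other 3 kept probes gave -0.13, -0.39 and -0.51. By genotype the pump's signs depended on single arrays: in knockout spleen all 5 subunits were below 0, and 4 without KO-l-SP replicate 2 or KO-nl-SP replicate 4. In wild-type spleen all 5 were above 0, and 3 without WT-l-SP replicate 1 or 2 or WT-nl-SP replicate 1 or 2, and 4 without WT-nl-SP replicate 3. With the 3 arrays left out, 4 of 5 were below 0 in knockout and all 5 above 0 in wild-type spleen. The 11 genes with a CACGTG motif had a median of -0.28 and the 24 tested genes whose promoters held none -0.29.

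**Figure D4:**
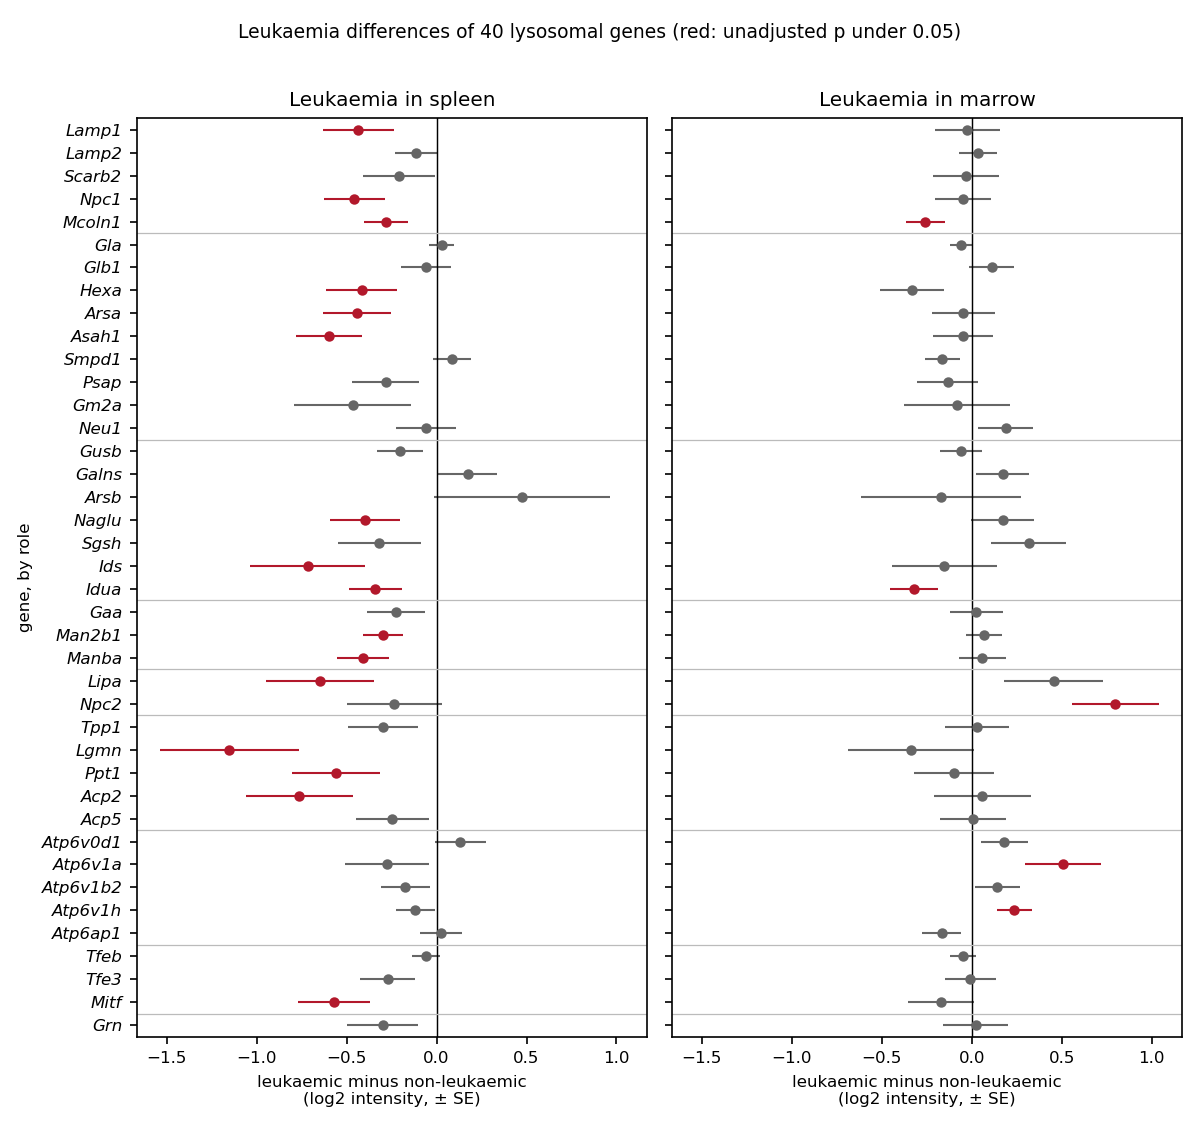
Leukaemic minus non-leukaemic difference in log2 intensity (x axis, mean of both genotypes, bars ± SE) of the 40 tested lysosomal genes (y axis, by role) in spleen (left) and marrow (right), with red for an unadjusted p under 0.05. In spleen 34 points lie left of 0 and 16 are red, all to the left; in marrow 21 lie left of 0 and 5 are red. No point passed an adjusted p of 0.05.

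The number of small p-values in spleen depended on single arrays more than the count below 0 did. Without the 3 arrays that stood apart, 32 of 40 genes were below 0 with a median of -0.17, but 1, Manba, had an unadjusted p under 0.05. Without the 4 arrays 32 were below 0, with a median of -0.14. In wild-type spleen alone 23 of 40 were below 0 without the 3 arrays, with a median of -0.07, and in knockout spleen 31, with a median of -0.21. The count of 16 became 5 without WT-l-SP replicate 3, 7 without WT-nl-SP replicate 1, 8 without KO-nl-SP replicate 5, 9 without KO-l-SP replicate 3 and 10 without KO-l-SP replicate 2. Calls appeared under other settings. Without WT-l-SP replicate 1, 2 genes were called, with the share of all genes not given. With the slide as a fixed block 3 were called, all lower. The authors' own log2 values gave 21 calls, 20 of them lower, where 2957 of 11937 genes were called. With all arrays, in wild-type spleen 30 of 40 genes were below 0 and 12 had an unadjusted p under 0.05, 11 of them lower, with 0 called where 0.142% of all genes were, and the smallest adjusted p was 0.0845 in limma for Man2b1, the alpha-mannosidase, at -0.61 ± 0.16, which was -0.34 without the 3 arrays. In knockout spleen 32 of 40 were below 0 and 2 (5%) had an unadjusted p under 0.05, with 0 called where 0% of all genes were. Of all 11937 genes 2018 had such a p in wild-type spleen and 634 in knockout spleen, so the background differed by genotype as well. Below 0 were 6047 of all genes in wild-type and 6365 in knockout spleen. Slides give no separate check: of the 2 that held both kinds of spleen array, one set KO-l-SP arrays against WT-nl-SP replicate 1 (median -0.65) and the other WT-l-SP replicate 3 against KO-nl-SP and WT-nl-SP arrays (median -0.61), so both mix genotypes and rest on arrays that stood apart.

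Macrophage markers were below 0 as well, 13 of 13 with a median of -1.15, and none was called. Leukaemic minus non-leukaemic differences in spleen were -0.93 for Adgre1, -1.34 for Mertk, -1.34 for Spic and -1.53 for Hmox1, the haem oxygenase, with adjusted p-values of 0.111 to 0.228 in limma. The mean of 13 measured macrophage markers was 7.07 to 10.16 in WT-nl-SP and 6.64 to 6.94 in WT-l-SP, and 7.23 to 7.81 in KO-nl-SP and 6.33 to 7.59 in KO-l-SP. All 12 measured neutrophil genes were above 0, with a median of 0.28: early granule genes such as Mpo, at 2.59, were highest, and late ones such as Camp, at 0.02, and S100a9, at 0.00, were near 0. All 10 erythroid genes were above 0, with a median of 1.87, such as Klf1, the erythroid factor, at 2.21 and Hbb-bt, a beta-globin gene, at 1.72, and none of either list was called. All 6 measured T and NK cell genes, such as Cd3g at 1.19, and all 5 megakaryocyte genes, such as Itga2b at 1.09, were above 0 too, without a call. B cell, eosinophil and dendritic cell genes went in both directions. The neutrophil marker mean was 5.92 to 7.60 in WT-nl-SP, 6.24 to 12.15 in WT-l-SP, 7.77 to 9.93 in KO-nl-SP and 7.44 to 9.98 in KO-l-SP. The direction in wild type rested on the 3 arrays that stood apart. Without them this mean was 7.60 and 7.22 in WT-nl-SP and lower in WT-l-SP, at 7.04 and 6.24. In KO-l-SP it was then 8.09, 9.94 and 7.44, which overlapped KO-nl-SP. The erythroid marker mean was 5.91 to 8.59 in WT-nl-SP, 8.40 to 10.57 in WT-l-SP, 5.05 to 10.29 in KO-nl-SP and 8.06 to 10.87 in KO-l-SP. The part of other cells in the lysosomal values was not tested.

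**Figure D5:**
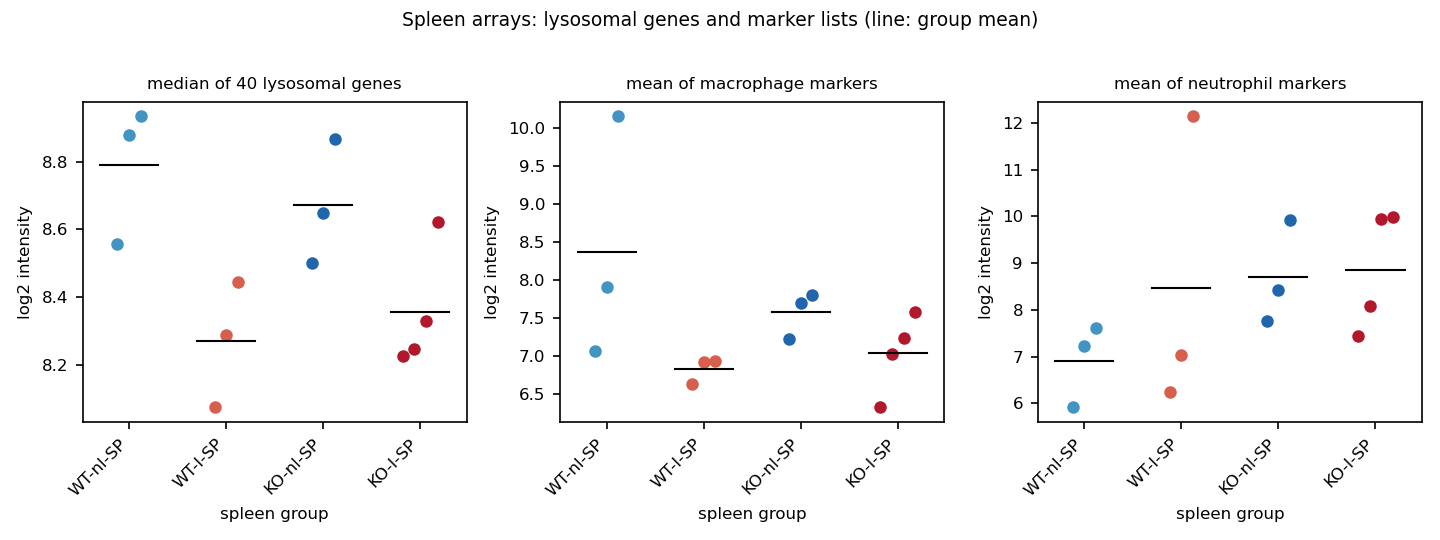
Spleen arrays only, 1 point per array and a line at each group mean (y axes, log2 intensity): the median of the 40 lysosomal genes (left), the mean of 13 macrophage markers (middle) and the mean of 12 neutrophil markers (right) in the 4 spleen groups. The lysosomal median is lower in the leukaemic groups, from 8.08 to 8.62, than in the non-leukaemic ones, from 8.50 to 8.93, with overlap in the knockouts; macrophage markers are lower too.

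Of the other pathway genes 53 of 66 were below 0 in leukaemic spleen, with a median of -0.15, 0 called and 15 at an unadjusted p under 0.05 in limma, 13 of them lower; over all genes 53% were below 0, 15.8% had such a p and 1 was called. The 12 lysosomal membrane proteins outside the 42 had a median of -0.30, 12 hydrolases -0.23, 10 further pump subunits -0.14 and 12 cathepsins -0.09, with Ctsa counted in both enzyme lists.

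In marrow leukaemia gave 0 calls among the 40 genes, where 0.00838% of all genes (again 1) were called, and no lean in direction. The median difference was -0.02 against -0.03 for all genes, and 21 of 40 (52.5%) were below 0 against 58.2%. In all 5 genes (12.5%) had an unadjusted p under 0.05 against 14.9% of all genes. Of these, Npc2 at 0.80 ± 0.24, Atp6v1a at 0.51 ± 0.21 and Atp6v1h, a regulatory pump subunit, at 0.24 ± 0.10 were above 0, and Idua, the iduronidase, at -0.32 ± 0.13 and Mcoln1, the lysosomal calcium channel, at -0.26 ± 0.11 were below. Atp6v1a was at 8.36 to 8.94 on the arrays of slide 6, which held only leukaemic marrow. On the other leukaemic marrow arrays it was at 7.56 to 8.22, so slide and leukaemia cannot be fully told apart for this gene.

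Npc2, the luminal cholesterol carrier, was at 9.10, 9.37 and 9.16 in WT-nl-BM, 9.06, 9.06, 10.32, 9.63 and 10.49 in WT-l-BM, 8.06, 9.20 and 9.05 in KO-nl-BM, and 9.41 to 10.43 with a median of 9.76 in KO-l-BM. In spleen it was at 8.58, 9.33 and 9.32 in WT-nl-SP, 9.58, 9.12 and 8.52 in WT-l-SP, 9.23, 9.45 and 9.37 in KO-nl-SP, and 8.70, 9.19, 8.24 and 9.40 in KO-l-SP. All 6 leukaemic knockout marrow arrays were above the 3 non-leukaemic ones, and the wild-type groups overlapped. The adjusted p was 0.16 in limma. Slides mattered here: the leukaemic arrays of slide 6, which held only leukaemic marrow, were the high ones in both genotypes. On slides with both kinds of marrow array, each mixing genotypes, the difference was 1.10 on 1 and -0.10 and -0.12 on the others. With the slide as a fixed block it was 0.34, with an adjusted p of 1. Array weights, which give less weight to arrays far from their group, gave 8 calls in this comparison, Npc2 among them at 0.84 with an adjusted p of 0.00377 in limma, where 2235 genes were called. By genotype the median over the 40 genes was -0.16 in wild-type and 0.10 in knockout marrow, with 0 called, 1 gene at an unadjusted p under 0.05 and 0% of all genes called in each. Of all 11937 genes 1250 had such a p in wild-type and 801 in knockout marrow.

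Whether leukaemia moved the lysosomal genes differently in the 2 tissues was tested as an interaction, the spleen difference minus the marrow difference. It gave 0 calls among the 40 genes and 0% of all genes in limma. At an unadjusted p of 0.05 there were 8 lysosomal genes (20%), all below 0, and 1570 of all genes (13.2%). The interaction was below 0 for 35 of 40 genes (87.5%) against 50.3% of all, with a median of -0.32 against 0.00. Among these 8 the lowest were -1.10 ± 0.41 for Lipa, the acid lipase of cholesteryl esters, -1.03 ± 0.36 for Npc2 and -0.78 ± 0.32 for Atp6v1a, while Acp2 at -0.82 ± 0.40 and Lgmn at -0.81 ± 0.52 were lower than Atp6v1a without such a p. The smallest adjusted p was 0.252 in limma. The 2 genes listed under cholesterol were above 0 in leukaemic marrow, at 0.45 for Lipa and 0.80 for Npc2, and below 0 in leukaemic spleen, at -0.65 and -0.23, although Lipa in marrow was at -0.13 with the authors' log2 values. Npc1, listed with the membrane proteins, was at -0.05 in leukaemic marrow on the probe used, and its other kept probes gave 0.07 to 0.69. Without the 3 arrays that stood apart 27 of 40 were below 0, with a median of -0.18 and 2 unadjusted p-values under 0.05, Npc2 at -1.07 and Atp6v1a at -0.78, while Lipa was at -0.62, Acp2 at -0.27 and Lgmn at -0.25. The marrow side of the Npc2 and Atp6v1a values holds the arrays of slide 6, which were high for both genes. That slide held only leukaemic marrow, so the slide limit given above for marrow applies to these 2 interaction values too. Without the 4 arrays 29 were below 0, with a median of -0.15 and 1 such p-value.

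Loss of Mif, averaged over the 4 strata, gave 0 calls among the 40 genes, where 0.687% of all genes (82) were called in limma. There were 2 genes (5%) that had an unadjusted p under 0.05 against 8.66% of all genes: Lipa at -0.48 ± 0.20 and Hexa, the alpha subunit of hexosaminidase, at -0.31 ± 0.13, with adjusted p-values of 0.479 and 0.504. The median was -0.09 against 0.00, and 30 of 40 genes (75%) were below 0 against 51.7%. Without the 3 arrays 28 were below 0 and without the 4 arrays 29, each with 3 unadjusted p-values under 0.05. Cell markers leaned with genotype, none of them called: all 12 neutrophil genes were above 0 in knockouts, with a median of 0.89, such as Ltf at 1.97, Camp at 1.85 and S100a8 at 1.31, and 10 of 13 macrophage genes were below 0, with a median of -0.26, such as Axl at -0.84 and Spic at -0.55. All 5 megakaryocyte genes were above 0, with a median of 0.38. Their part in the lysosomal values was not tested. The 5 tested proton pump subunits were all above 0 on the probes used, between 0.02 and 0.11, as they were with the authors' values and 75th percentile scaling. None had an unadjusted p under 0.05, and without the 4 arrays Atp6v1a was at -0.03. The sign also depended on the probe: Atp6v0d1 was at 0.11 on the probe used, while its other kept probes gave 0.06, -0.05 and -0.12. The 95% intervals of all 40 differences lay between -0.90 and 0.71, so none reached 1 log2 unit in either direction.

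Lipa was at 10.42 ± 0.72 (SD, n = 3) in WT-nl-SP and 9.31 ± 0.34 (SD, n = 3) in KO-nl-SP, with ranges of 9.87 to 11.23 and 8.99 to 9.66 that did not overlap. In leukaemic spleen it was 9.27 ± 0.69 (SD, n = 3) against 9.17 ± 0.44 (SD, n = 4), with overlap. The non-leukaemic spleen difference of -1.11 ± 0.44 had an adjusted p of 0.354 in limma, and was -0.70 without the 3 arrays that stood apart. Hexa was at 10.07 ± 0.20 (SD, n = 3) in WT-nl-BM and 9.49 ± 0.25 (SD, n = 3) in KO-nl-BM, and at 9.66 ± 0.36 (SD, n = 5) and 9.24 ± 0.34 (SD, n = 6) in leukaemic marrow, where the ranges overlapped.

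No gene of the 40 was called for Mif within a stratum. With leukaemia the share of all genes called was 0.0419% in marrow and 0.0419% in spleen, and without it 0.0754% in marrow and 0.268% in spleen. At an unadjusted p under 0.05 there were 0 genes in either leukaemic or non-leukaemic marrow and 1 in leukaemic spleen. Of all 11937 genes 346 had such a p in leukaemic and 675 in non-leukaemic marrow. In leukaemic spleen 631 of all genes had one, and in non-leukaemic spleen 1220. In non-leukaemic marrow 34 of 40 genes were below 0, and in leukaemic spleen 20, against 6219 and 6252 of all genes. Non-leukaemic spleen had 6 unadjusted p-values under 0.05, the smallest for Lamp2 at 0.67 with an adjusted p of 0.101 in limma. There were 2 without the 3 arrays and 0 without the 4, with Lamp2 at 0.50 without the 3. Without WT-nl-SP replicate 2, 1 gene was called in that stratum, with the share of all genes not given. Within slide 6, which held 3 arrays of KO-l-BM and 3 of WT-l-BM, the median difference of the 40 genes was -0.07. The tissue, leukaemia and genotype comparisons share arrays, so their values are not independent of each other.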

How the data were processed

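RNA of sorted F4/80 macrophages was hybridised to 30 Illumina bead arrays on 6 slides. For 45281 probes the authors deposited the intensity before normalisation and its detection p-value, and in a second table log2 values. The submitters' processing notes name Partek; how the authors' log2 values were normalised is not stated. Set against its own array's intensities on a log2 scale, each column of them had r = 0.99 to 0.9973, with medians of 6.41. In them the slide accounted for 0.191% of the variance inside groups for the median gene, against 24.2% in the values used here and 22.7% by degrees of freedom alone.

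Intensities were corrected by normexp and quantile normalised with neqc in limma 3.58.1 (R 4.3.3, offset 16). Probes with a detection p-value under 0.05 on at least 3 arrays were kept (23515), and the probe with the highest mean stood for each gene, which gave 11937 genes. Of all probes 34885 had 1 gene symbol, 18 several and 10378 none in the platform annotation, and 34807 matched RefSeq by gene ID. Of 89 probes of the lysosomal genes 74 were kept. One linear model with the 8 groups was fitted to all 30 arrays with lmFit and eBayes. Adjusted p-values are Benjamini-Hochberg over all genes within each of 17 comparisons, and all p-values are two-sided. The number of arrays limits the precision.

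The genes described array by array are those called in any of the 5 main comparisons, filled up to 10 by the smallest unadjusted p in them; genes called in a stratum and up to 6 called genes of the other pathway lists are named with values. The fit was tested on simulated data. The members and lists were chosen with earlier results of these data known. Alternatives changed the values (those of the authors), the background correction (none), the normalisation (75th percentile), the filter (none or stricter), the block (slide, fixed or random, or replicate number), the weights of arrays, the groups in the fit, the probes per gene (all kept) and the arrays (without the 3 that stood apart, and without each in turn). Leaving out 4 spleen arrays together was added after seeing the data. Where a replicate number is given, it is that of the labels. Protein sequences were not used here.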

Additional observations from a re-analysis of the deposited data

Results flagged for a closer look

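In 3 of 30 groups of 4 to 6 arrays examined for the genes described array by array, 1 array lay far from the rest by Dixon's criterion, which chance alone does in about 1 of 20 groups. Ppt1 on WT-l-BM replicate 2 was at 6.43, with the other arrays of that group between 6.995 and 7.16. Asah1 was low on the same array, at 11.13 against 11.50 to 11.64. Manba on KO-l-SP replicate 3 was at 7.93 against 8.57 to 8.58.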

How the results depend on the processing

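Galns, Lgmn, Acp2 and Gusb stayed called between tissues in all 30 fits that left out 1 array, with a highest adjusted p of 0.0392 (limma). Gusb was lost under 75th percentile scaling. Gm2a was lost in 21 of these fits and under 7 other settings, and Manba in 8 and Ppt1 in 7, both also without a filter and with the slide as a fixed block. No gene described array by array changed direction. The median over the 40 genes, within 0.02 of 0 between tissues and for leukaemia in marrow, changed sign under some settings. Between tissues, where 7 were called, the count was 12 with the authors' log2 values, 11 with array weights and 4 with 75th percentile scaling, no filter or the slide as a fixed block; leaving out 1 array gave 4 to 10. Over all genes it was 1880, against 3276 with the authors' values and 3241 with array weights. In non-leukaemic wild type (2 called) it was 8 with the authors' values, 1 with no background correction, 75th percentile scaling or all kept probes, 0 with no filter, only the compared groups or without the 3 arrays that stood apart, and 0 to 4 without 1 array. In leukaemic knockouts (2 called) it was 4 with the authors' values or array weights, 1 with 75th percentile scaling or no filter, 0 with the slide as a fixed block or only the compared groups, 9 without the 3 arrays, and 0 to 6 without 1 array. In non-leukaemic knockouts (0 called) it was 3 with the authors' values and 1 with the slide as a fixed block, array weights or without the 3 arrays. For leukaemia in spleen (0 called) it was 21 with the authors' values, 3 with the slide as a fixed block and 0 to 2 without 1 array, and over all genes 2957 and 446 against 1. In wild-type spleen it was 13 with the authors' values, 1 with the slide block and 0 to 3 without 1 array, and in knockout spleen 3 with the authors' values. The interaction had 1 call with the authors' values. For leukaemia in marrow array weights gave 8 calls, and 1 in each genotype, with 2235 genes against 1. For Mif it was 1 with the authors' values in non-leukaemic spleen, 1 with array weights in non-leukaemic marrow, and 0 to 1 in non-leukaemic spleen without 1 array. Without 4 spleen arrays, the 3 and KO-nl-SP replicate 6, a setting chosen after seeing the data, the counts were 12 between tissues, 0 and 9 in the strata with 2 calls, and 1 in leukaemic wild type and 1 in non-leukaemic knockouts. Leaving out the 3 arrays also moved the share of all genes called between tissues, from 15.7% to 21.3%. Counts given without a share or count of all genes are therefore not results about the lysosomal genes. The cause was not tested. Replicate numbers did not pair the arrays: correlations of same-numbered arrays ran from -0.50 to 0.17 across tissues, -0.16 to 0.47 across leukaemia status and -0.42 to 0.48 across genotypes. With the replicate block 6 genes were called between tissues, Manba at -0.30 (adjusted p = 0.068) and Gm2a at 0.65 (adjusted p = 0.0661) being lost to it under limma, with 1 call in non-leukaemic wild type and 0 in leukaemic knockouts. Probes close to background limit Gla, Tfeb, Acp5 and Mitf.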
